A study of Mus musculus with 19 samples.

Results

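Resting regulatory T cells without p65 were set directly against resting regulatory T cells without c-Rel, across every gene of the authors' table for freshly sorted cells that had values per library. Regulatory T cells (Tregs) are CD4 T cells that hold immune responses in check, and resting Tregs (rTregs) are the naive-like ones that recirculate through lymphoid organs. The comparison held 4 of the 19 libraries of the series and 14818 genes, of which 10656 reached 1 RPKM in at least 2 of the 13 libraries of sorted cells and were tested. All mice were Foxp3-CRE-YFP mice of the C57Bl/6 strain. The p65KO group was 2 libraries from such mice with p65 F/F alleles, and the c-RelKO group was 2 libraries from such mice with c-Rel F/F alleles. The WT group, used only to place values, was 2 libraries from Foxp3-CRE-YFP mice with neither floxed allele named. All groups thus share a Cre and YFP allele driven by Foxp3, the lineage factor of Tregs, which limits the deletion to cells that have expressed Foxp3. All were YFP+ cells sorted as CD62Lhi CD44lo from spleen and lymph nodes, untreated, with RNA extracted right after the sort; ages are not given. Activated Tregs (aTregs, CD62Llo CD44hi) of the same genotypes, 2 p65KO and 2 c-RelKO libraries, served as a second set of samples for the same contrast. No label says that replicates are separate animals, so p-values measure only the spread between these samples, which may be technical. In such bulk samples fewer cells of a type and less RNA per cell cannot be told apart.

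NF-kB transcription factors are dimers of the subunits p65 (gene Rela), c-Rel (Rel), RelB (Relb), p50 (Nfkb1) and p52 (Nfkb2). p65, c-Rel and RelB carry the domains that activate transcription, while p50 and p52 are made from longer precursors that also hold dimers in the cytoplasm. Inhibitors such as IkBa (Nfkbia) and A20 (Tnfaip3) are themselves targets of the pathway and close a negative feedback loop. In Tregs, c-Rel is known for its part in the thymic induction of Foxp3, and p65 and c-Rel are both known for keeping mature Tregs functional.

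The promoters of 3 genes of this network are shown because their RNA separated the genotypes and each holds a match to the kB motif. The sequences are the 250 bases before the start site in RefSeq (GRCm38.p6), 5′ to 3′ on the gene's strand, with matches to the kB motif on either strand in capitals. The motif was searched as GGG, any 5 bases, then CC. Rel lies at chr11:23770970-23771219 on the minus strand, Nfkb2 at chr19:46304487-46304736 on the plus strand and Tnfaip3 at chr10:19015411-19015660 on the minus strand. The promoter shown is the first of 3 listed for Nfkb2 and the first of 2 for Tnfaip3. Relb, whose RNA also separated the genotypes, is named only.
Rel: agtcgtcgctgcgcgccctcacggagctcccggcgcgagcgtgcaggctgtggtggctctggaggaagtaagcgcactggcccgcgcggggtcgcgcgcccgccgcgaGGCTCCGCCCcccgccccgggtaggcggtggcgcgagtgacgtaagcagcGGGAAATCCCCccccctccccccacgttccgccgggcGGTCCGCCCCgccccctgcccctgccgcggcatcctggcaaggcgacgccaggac
Nfkb2: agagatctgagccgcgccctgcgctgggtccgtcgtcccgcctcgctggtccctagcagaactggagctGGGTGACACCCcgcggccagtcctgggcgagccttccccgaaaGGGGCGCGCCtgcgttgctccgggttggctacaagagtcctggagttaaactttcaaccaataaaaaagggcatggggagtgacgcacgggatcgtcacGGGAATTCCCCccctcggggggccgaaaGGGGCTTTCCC
Tnfaip3: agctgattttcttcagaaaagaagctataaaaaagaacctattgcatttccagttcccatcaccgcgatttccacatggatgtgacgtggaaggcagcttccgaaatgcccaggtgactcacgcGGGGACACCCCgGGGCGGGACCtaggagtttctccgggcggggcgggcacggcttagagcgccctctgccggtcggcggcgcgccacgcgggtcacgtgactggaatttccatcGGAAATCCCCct
Adjacent matches overlap in the runs of 11 letters, since both strands were searched. In each promoter shown 1 run also holds a narrower motif, searched on both strands as GGG, any 2 bases, TTT, then CC, every match to which is a match to the wider motif as well. That run is GGGAAATCCCC for Rel (bases -92 to -82 from the start site), GGGGCTTTCCC for Nfkb2 (-11 to -1) and GGAAATCCCC for Tnfaip3 (-12 to -3). Of the promoters not shown, the third of Nfkb2 holds the narrower motif, and the second of Nfkb2 and the second of Tnfaip3 do not. The wider motif occurred in 48.7% of all 27025 genes' promoters of that length in the RefSeq table and in 66.8% of the 8208 tested genes that had a promoter there, so a match to it is common. The narrower motif occurred in 1.65% and 1.85% of the same sets. Of the genes described below as apart, it occurred in 4 of 127 with a promoter that were higher in p65KO rTregs (3.15%: Birc5, Rel, Slc37a4 and Tnfrsf25). It occurred in 3 of 54 that were lower (5.56%: Nfkb2, Serpina3g and Tnfaip3). A match is a description of letters and not evidence of binding.

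Levels are in RPKM, a read count normalized for the length of the gene and the size of the library, after an adjustment by the authors that no label describes. The depth of the libraries is unknown beyond the 30M reads per sample named in the series design, and between 9765 and 10005 genes reached 1 RPKM in each rTreg library. Cd44, low in the sort of resting cells, stood at most at 19.4 RPKM in the 6 rTreg libraries. The Treg genes Foxp3, Il2ra, Ctla4, Ikzf2, Cd4 and Cd3e were present in every library. c-RelKO replicate 2 nevertheless stood apart from the other rTreg libraries in some of these Treg genes. Foxp3 was 64.1 and 64.0 RPKM in p65KO, 73.6 and 28.1 in c-RelKO and 71.9 and 97.5 in WT rTregs. Il2ra, the high-affinity interleukin 2 receptor chain, was 65.5 in c-RelKO replicate 2 and between 122 and 180 in the others, and Ikzf2, the transcription factor Helios, was 4.35 there and between 18.5 and 47.0 in the others. Ctla4 was also the lowest there, at 108. Cd4 went the other way, at 318 there and between 207 and 240 in the others. Cd3e was 381 there, below only the 519 of c-RelKO replicate 1. The summed RPKM of 27 Treg identity genes was 2521 and 2613 in p65KO, 2784 and 1712 in c-RelKO and 2832 and 2784 in WT rTregs. Where a difference of a gene or list described below rests mainly on this library, the value without it is given as well. Genes listed only by name are an exception.

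No gene distinguished p65KO from c-RelKO rTregs in limma with Benjamini-Hochberg adjustment at 0.05 (0 of 10656, 0%). At an unadjusted p under 0.05 there were 215 genes (2.02%), 105 higher and 110 lower in p65KO. Of all tested genes, 96.3% differed by less than 0.5 on the log2(RPKM + 0.5) scale, on which all differences below are given as p65KO minus c-RelKO. That scale understates differences of weakly expressed genes. The median standard error of a difference was 0.18 and the median half-width of its 95% interval 0.40. With 2 libraries a side an exact permutation test cannot reach 0.05 for a single gene. The lowest adjusted p, 0.57 in limma, belonged to Tbc1d23, a Golgi trafficking adaptor noted after its values were seen. It had 5.05 and 5.38 RPKM in p65KO, 2.24 and 2.78 in c-RelKO and 3.98 and 4.50 in WT rTregs. Its groups did not overlap, and the difference was 0.93 (SE 0.14). Among the 10 genes with the lowest unadjusted p, 9 had the same sign in aTregs, against 56.8% of all tested genes. Rel ranked the fourth by size and the eighth by p of all tested genes.

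**Figure D1:**
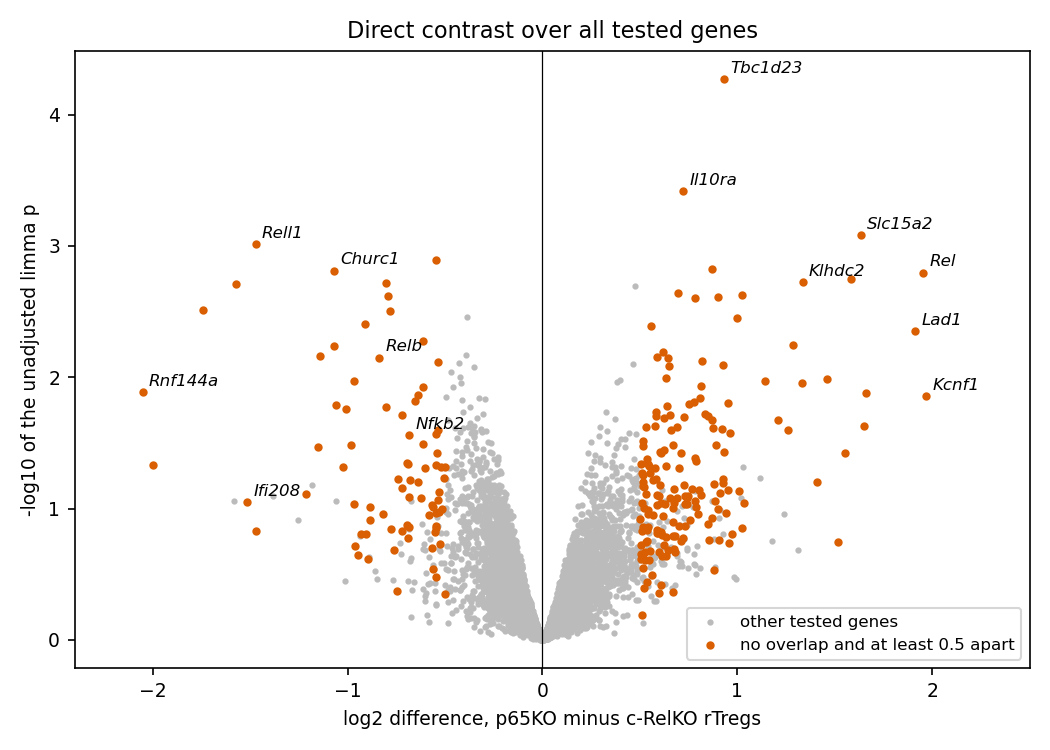
Log2 difference of each tested gene, p65KO minus c-RelKO rTregs (horizontal axis), against -log10 of the unadjusted limma p (vertical axis). Orange points are the 253 genes whose 2 p65KO and 2 c-RelKO libraries did not overlap and whose means differed by at least 0.5, and grey points are the other tested genes; none passed an adjusted p of 0.05.

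Among the NF-kB subunits, the p65KO and c-RelKO libraries of Rel, Relb, Nfkb2 and Rela did not overlap, with differences of at least 0.5 in size for the first 3 of these and a smaller one for Rela, and those of Nfkb1 overlapped. Of all tested genes 30.7% did not overlap, and 2.37% did not overlap and also differed by at least 0.5. The median difference of the 5 subunit genes was -0.14, with 2 above 0. Rel (chromosome 11, 23736847 to 23770970, minus strand, GRCm38), the gene deleted in one group, had 11.1 and 13.8 RPKM in p65KO, 5.37 and 1.39 in c-RelKO and 10.9 and 20.5 in WT rTregs. Both c-RelKO libraries lay below all others but retained some Rel RNA, most in replicate 1. The group means were 12.5 ± 1.96 in p65KO and 3.38 ± 2.82 in c-RelKO rTregs (SD, n = 2 each), a log2 difference of 1.95 (SE 0.46, 95% interval 0.93 to 2.97), with a limma adjusted p of 1. Without c-RelKO replicate 2 it was 1.13. Rela (chromosome 19, 5637483 to 5648130, plus strand) had 69.4 and 59.9 RPKM in p65KO, 70.8 and 71.6 in c-RelKO and 71.5 and 69.0 in WT rTregs. The difference was -0.14 (95% interval -0.41 to 0.12) and -0.04 without p65KO replicate 2. The labels do not say which exons are floxed, so a value over the whole gene does not check the p65 deletion.

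Relb, which encodes the activating subunit of the non-canonical pathway, was the lowest in p65KO rTregs. It had 14.4 and 14.5 RPKM in p65KO, 30.7 and 22.4 in c-RelKO and 26.5 and 21.9 in WT rTregs. Both p65KO libraries lay below the other 4. The difference was -0.84 (SE 0.25, 95% interval -1.40 to -0.28, unadjusted limma p 0.00709, adjusted p 1), -1.07 between the libraries numbered 1 and -0.61 between those numbered 2. In the authors' deposited table Relb was lower in p65KO than in WT rTregs by a log2 fold change of -0.96, with a p of 0.000523 that is 0.396 after Benjamini-Hochberg adjustment. Its c-RelKO fold change against WT was 0.16 in the authors' deposited table. These 2 deposited comparisons share the WT libraries. In aTregs Relb had 18.8 and 19.7 RPKM in p65KO and 38.4 and 33.3 in c-RelKO cells, again without overlap, a difference of -0.88 (SE 0.25, unadjusted limma p 0.00542, adjusted p 0.53).

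Nfkb2, the p100 precursor of p52 and partner of RelB, had the same order. It had 21.4 and 18.4 RPKM in p65KO, 42.1 and 24.6 in c-RelKO and 23.4 and 31.5 in WT rTregs. The p65KO libraries lay below all others, while c-RelKO replicate 1 stood above the rest, and the difference of -0.68 (95% interval -1.28 to -0.09) became -0.30 without that library. In aTregs Nfkb2 had 34.7 and 34.2 RPKM in p65KO and 47.0 and 38.2 in c-RelKO cells, a difference of -0.29. Nfkb1, the p105 precursor of p50, had 74.0 and 66.2 RPKM in p65KO, 72.6 and 67.2 in c-RelKO and 70.3 and 82.7 in WT rTregs. Its groups overlapped and the difference was 0.00 (95% interval -0.30 to 0.30).

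**Figure D2:**
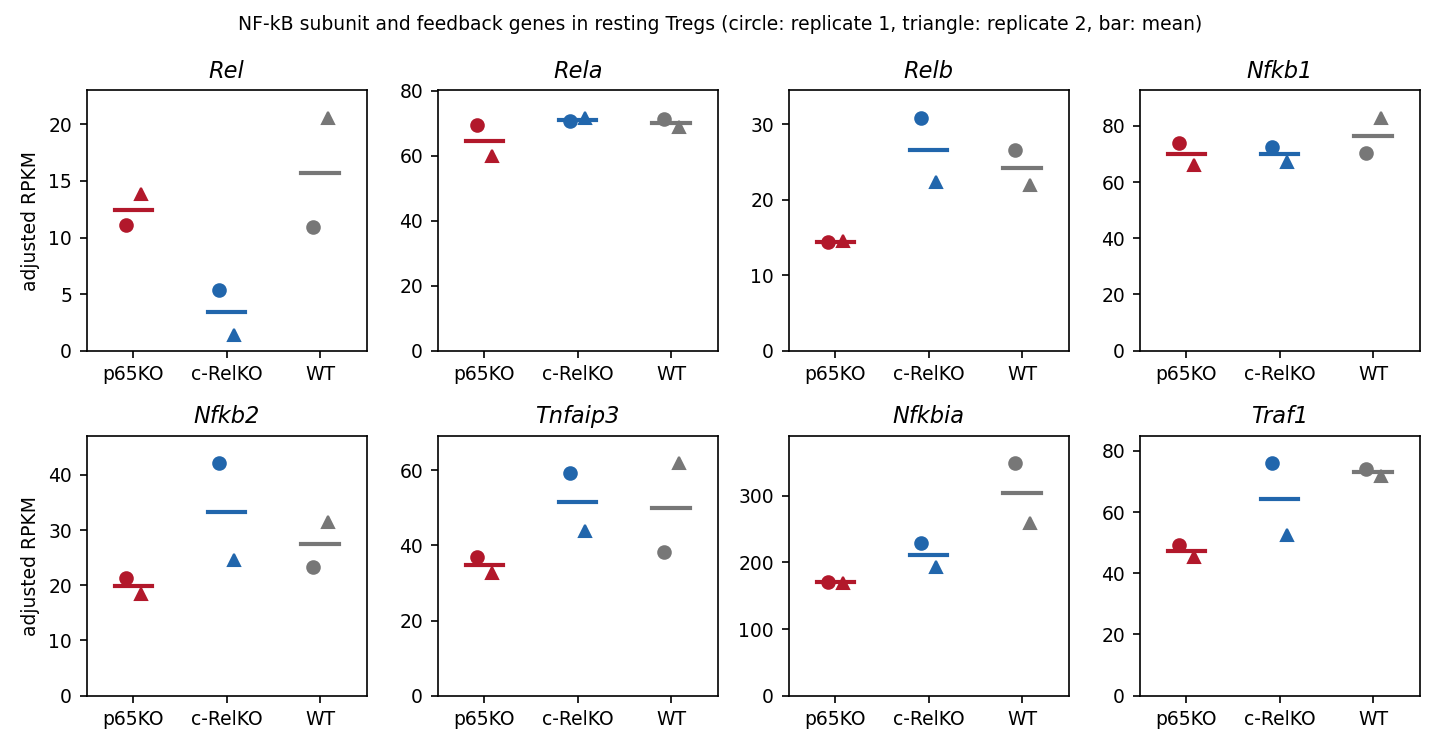
Adjusted RPKM (vertical axes, from 0) of 5 NF-kB subunit genes and 3 feedback genes in p65KO, c-RelKO and WT rTregs. Circles are replicate 1, triangles replicate 2 and bars group means; Rel is lowest in both c-RelKO libraries, and Relb, Nfkb2 and Tnfaip3 are lowest in both p65KO libraries.

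Of 32 tested inhibitors, feedback targets and signalling proteins of the pathway, 9 had a difference above 0, and the median was -0.09. Among all tested genes 45.4% lay above 0 and the median was -0.01. The median was -0.05 without c-RelKO replicate 1, the library that lay above both p65KO libraries in 22 of the 32 genes, against 3720 of all 10656. Tnfaip3 had 36.9 and 32.6 RPKM in p65KO, 59.2 and 43.9 in c-RelKO and 38.1 and 61.8 in WT rTregs. The difference was -0.55 (SE 0.34), or -0.33 without c-RelKO replicate 1, and in aTregs, where the groups again did not overlap, -0.62. Traf1, a signalling adaptor of TNF receptors, had 49.3 and 45.3 RPKM in p65KO, 75.9 and 52.5 in c-RelKO and 74.0 and 72.0 in WT rTregs, a difference of -0.41 (SE 0.17) that was -0.15 without c-RelKO replicate 1. In aTregs its groups overlapped, with a difference of -0.02. Nfkbia, which encodes IkBa, had 171 and 169 RPKM in p65KO, 229 and 192 in c-RelKO and 349 and 259 in WT rTregs. Both deletions gave values below both WT libraries, and the p65KO libraries were the lower ones, with a difference of -0.31 (SE 0.20) in rTregs and -0.58 (SE 0.20) in aTregs. The rTreg difference of Nfkbia was -0.18 without c-RelKO replicate 1. The signalling genes of the list, such as Ikbkb (-0.11) and Map3k14 (0.01), differed less. None of the 32 passed the adjusted test, and 1 had an unadjusted p under 0.05, Traf1 at 0.0369.

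To describe the wider pattern, a gene was called apart where its 2 p65KO and 2 c-RelKO rTreg libraries did not overlap and the log2 difference was at least 0.5. Of the tested genes 3274 did not overlap (30.7%), and 253 were apart (2.37%), 173 higher (1.62%) and 80 lower (0.751%) in p65KO rTregs. Without c-RelKO replicate 2 these counts were 222 higher and 335 lower, so that lower genes then outnumbered higher ones. Placed against WT, the mean WT value lay nearer to the p65KO mean for 68 of the 173 higher genes and nearer to the c-RelKO mean for 105. Of the 80 lower genes it lay nearer to p65KO for 30 and nearer to c-RelKO for 50.

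Among the largest differences higher in p65KO, several came from values that were low in c-RelKO rTregs. Lad1, which encodes an anchoring-filament protein of epithelia, had 7.87 and 9.49 RPKM in p65KO, 2.97 and 1.20 in c-RelKO and 15.8 and 17.0 in WT rTregs. The 3 genotypes did not overlap, and the difference was 1.91 (SE 0.53). Slc15a2, a proton-coupled peptide transporter, had 5.75 and 6.90 RPKM in p65KO, 1.503 and 1.896 in c-RelKO and 3.55 and 5.17 in WT rTregs, a difference of 1.63 (SE 0.35). Ncf1, the p47phox subunit of the NADPH oxidase, had 7.68 and 9.29 RPKM in p65KO, 4.88 and 1.85 in c-RelKO and 6.02 and 6.40 in WT rTregs (1.33, SE 0.43, and 0.73 without c-RelKO replicate 2). For Slc15a2 and Ncf1 both c-RelKO libraries lay below all p65KO and WT libraries. Tnfrsf25, the death receptor DR3 for the Treg-expanding cytokine TL1A, behaved likewise, at 62.3 and 59.9 RPKM in p65KO, 44.1 and 38.7 in c-RelKO and 68.4 and 65.1 in WT rTregs (0.56, SE 0.15).

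For other genes the p65KO libraries stood above both c-RelKO and WT. Il10ra, the ligand-binding chain of the interleukin 10 receptor, had 57.4 and 59.8 RPKM in p65KO, 38.7 and 32.2 in c-RelKO and 37.5 and 36.4 in WT rTregs. The difference was 0.72 (SE 0.14, 95% interval 0.41 to 1.03, unadjusted limma p 0.00038, adjusted p 1), and the c-RelKO and WT libraries overlapped. In aTregs Il10ra had 79.3 and 82.0 RPKM in p65KO and 56.4 and 47.7 in c-RelKO cells, against 84.9, 78.0 and 67.3 in WT cells. The aTreg difference was 0.63 (SE 0.14), here with the c-RelKO libraries below the WT ones. Klhdc2, a substrate receptor of a cullin ubiquitin ligase, had 40.7 and 36.7 RPKM in p65KO, 11.8 and 19.0 in c-RelKO and 20.9 and 17.0 in WT rTregs (1.34, SE 0.32). Kcnf1, a modifier subunit of voltage-gated potassium channels, had 10.6 and 17.0 RPKM in p65KO, 3.57 and 2.62 in c-RelKO and 5.47 and 2.87 in WT rTregs (1.97, SE 0.67).

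Further genes of this direction were Bckdhb (1.46), Fam46a (1.26), H2-T10 (1.03) and the small nucleolar RNA Snord55 (1.02). Without c-RelKO replicate 2 H2-T10 was at 0.48, and without c-RelKO replicate 1 Bckdhb was at 0.88 and Fam46a at 0.71. Id2, an inhibitor of helix-loop-helix factors, had 91.4 and 76.3 RPKM in p65KO, 19.6 and 40.5 in c-RelKO and 119 and 31.3 in WT rTregs (1.55, SE 0.65). For Id2, WT replicate 1 lay above both p65KO libraries and WT replicate 2 lay between the c-RelKO libraries. Mki67, a marker of cycling cells, had 7.39 and 7.84 RPKM in p65KO, 6.81 and 0.605 in c-RelKO and 5.85 and 0 in WT rTregs, and its difference of 1.51 was 0.15 without c-RelKO replicate 2. H2-T10 has close relatives among class I genes, so reads may be split between them.

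Genes lower in p65KO included some that were high in c-RelKO relative to WT. Rell1, a relative of the TNF receptor family member RELT, had 3.20 and 2.18 RPKM in p65KO, 9.09 and 7.45 in c-RelKO and 3.28 and 2.44 in WT rTregs. Both c-RelKO libraries stood above the other 4, and the difference was -1.47 (SE 0.32). In the authors' deposited table Rell1 was 1 of 4 genes that passed an adjusted p of 0.05 in c-RelKO against WT rTregs, with a log2 fold change of 1.61. The others were Cmpk2 (1.04), Bcam (-1.73) and Rel (-2.48), so 2 genes were higher and 2 lower (0.0135% of 14818 each). For p65KO against WT the authors' deposited table gave 5 higher genes (0.0337%) and no lower one (0%), namely Cmpk2 (1.31), Ifit3 (1.38), Racgap1 (1.56), Ifit3b (1.76) and Tns4 (2.43). Cmpk2, an interferon-inducible nucleotide kinase, is on both lists, and both use the same WT libraries. In limma neither genotype had a gene called against WT (0 of 10656, 0% each, with 726 for p65KO and 775 for c-RelKO at an unadjusted p under 0.05).

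Ifi208, a member of the interferon-inducible PYHIN family, had 26.1 and 20.4 RPKM in p65KO, 67.7 and 66.1 in c-RelKO and 27.3 and 46.5 in WT rTregs (-1.52, SE 0.81). The c-RelKO libraries were the highest. Churc1, a zinc-binding protein, had 64.2 and 59.6 RPKM in p65KO, 146 and 117 in c-RelKO and 110 and 81.7 in WT rTregs, so that the 3 genotypes did not overlap (-1.07, SE 0.25). Churc1 overlaps Fntb on the same strand of chromosome 12, and reads of the 2 genes may not be separable. Clec2i, a lectin-like ligand of natural killer cell receptors, had 21.7 and 21.99 RPKM in p65KO, 59.7 and 36.1 in c-RelKO and 35.6 and 51.8 in WT rTregs (-1.07, SE 0.31, and -0.71 without c-RelKO replicate 1). Its p65KO libraries were the lowest of the 6.

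Rnf144a, a ubiquitin ligase, had 5.15 and 0.941 RPKM in p65KO, 9.63 and 13.3 in c-RelKO and 4.83 and 10.6 in WT rTregs, with the largest difference in this direction among the named genes (-2.05, SE 0.68). It was -1.07 without p65KO replicate 2. The rest of the 12 largest lower genes were Gm14085 (-1.57), Lars2 (-1.02), Bambi-ps1 (-0.98), Snapc1 (-0.97), Dhrs7 (-0.91), Serpina3g (-0.90) and Cd74. Bambi-ps1 was at -0.37 without c-RelKO replicate 2, Serpina3g at -0.33 without c-RelKO replicate 1 and Lars2 at -0.62 without p65KO replicate 1. Cd74, the class II invariant chain, had 29.3 and 37.5 RPKM in p65KO, 200 and 43.0 in c-RelKO and 47.4 and 46.6 in WT rTregs, so that its difference of -1.47 came mainly from c-RelKO replicate 1 and was -0.37 without it. In that library the class II gene H2-Ab1 was 16.1 RPKM, against at most 5.92 in the others, and the summed RPKM of 8 B cell list genes was 48.3. The sums were 22.1 and 11.5 in p65KO, 48.3 and 11.5 in c-RelKO and 31.6 and 17.8 in WT rTregs. Ms4a1, a defining B cell gene, was at most 0.177 RPKM in every rTreg library.

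The same contrast in aTregs uses other libraries, although the labels do not say whether they came from the same animals. Their replicate numbers are 1 and 2 for p65KO and 2 and 3 for c-RelKO. limma called no gene there either (0 of 10656, 0%, with 634 at an unadjusted p under 0.05), while 46 were called with a replicate block and 5 with no filter on low values. Of the 253 genes apart in rTregs, 202 had the same sign in aTregs (79.8%), against 56.8% of all tested genes. For 100 of them (39.5%) the aTreg libraries also did not overlap in the same direction, against 22.6% of all tested genes; without regard to rTregs, 36.6% of genes did not overlap in aTregs. When the rTreg genes were chosen without c-RelKO replicate 2, 348 of 557 had the same sign (62.5%). By direction this was 55.4% of the genes higher in p65KO and 67.2% of the lower ones. The 56.8% of all tested genes uses all libraries and pools both directions, so it is not a like baseline for these shares. In aTregs 46% of all tested genes lay above 0. With all libraries, 136 of the 173 higher and 66 of the 80 lower genes had the same sign in aTregs. The correlation of both differences across genes was 0.28 (Pearson), a description, since genes are not independent replicates.

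Of the 24 largest named genes, 21 had the same sign in aTregs, against 56.8% of all tested genes. For 17 the aTreg libraries also did not overlap in the same direction, against 22.6% of all tested genes. The 24 were chosen for large differences without overlap in rTregs and include the deleted gene Rel. Rel had 15.9 and 17.5 RPKM in p65KO and 1.56 and 3.01 in c-RelKO aTregs, a difference of 2.68. Lad1 had 4.19 and 7.85 RPKM in p65KO and 1.15 and 0.414 in c-RelKO aTregs (2.35). Ifi208 had 12.99 and 0.714 RPKM in p65KO and 27.3 and 38.6 in c-RelKO aTregs (-3.03). For these 3 genes the difference of group means was larger in aTregs than in rTregs. For Ifi208 it rested in part on p65KO aTreg replicate 2, at 0.714 RPKM against 12.99 in replicate 1. The 3 genes with the opposite sign were Id2 (-0.69 in aTregs), Snord55 (-0.63) and Lars2 (0.24). The test of the difference between rTregs and aTregs called no gene in limma (0 of 10656, 0%, with 219 at an unadjusted p under 0.05), against 8 with a replicate block and 2 with no filter on low values.

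**Figure D3:**
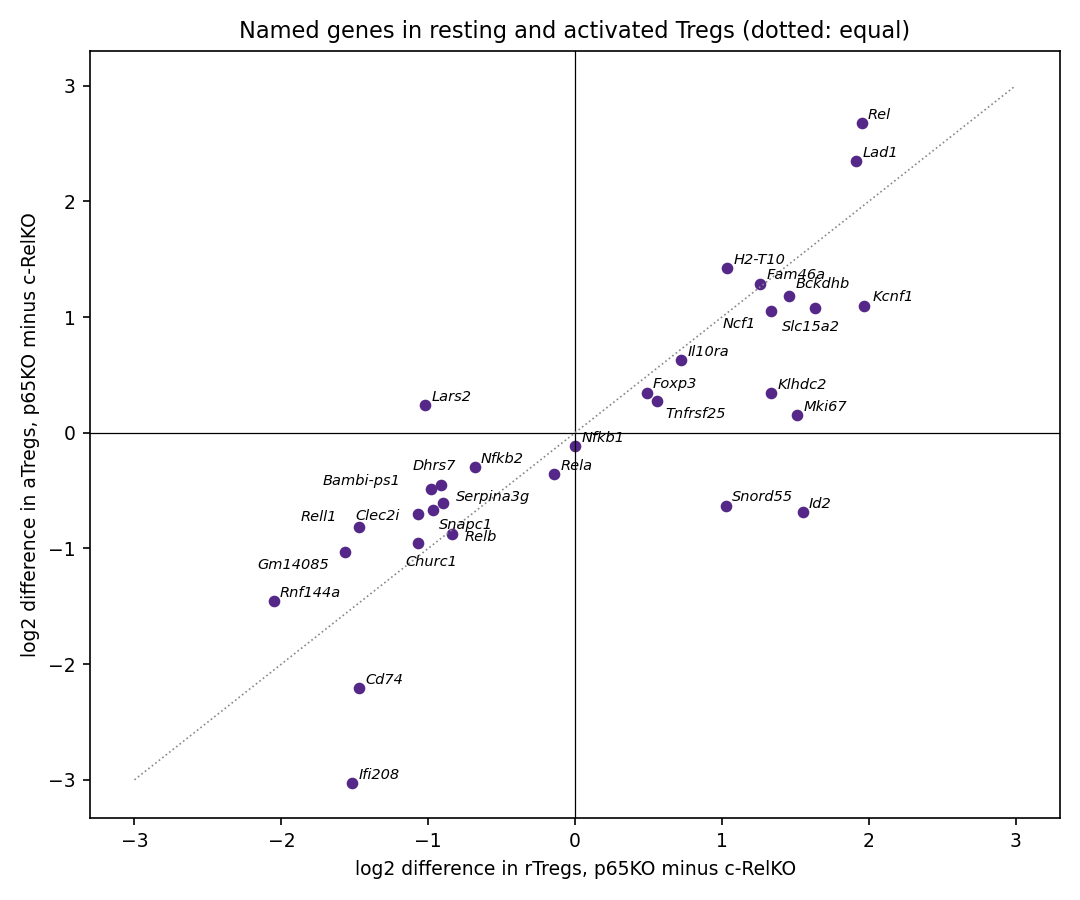
Log2 difference, p65KO minus c-RelKO, in rTregs (horizontal axis) and aTregs (vertical axis). Points are the NF-kB subunit genes, Foxp3, the 24 largest named genes, Il10ra and Tnfrsf25, and the dotted line marks equal differences. Among the 24 largest, Rel, Lad1 and Ifi208 lie beyond the line in aTregs, while Id2, Snord55 and Lars2 have opposite signs.

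Interferon-stimulated genes, which respond to type I and II interferon, leaned towards p65KO. Of 41 tested, 40 had a difference above 0, the median was 0.36, and 5 were apart, all higher in p65KO (Iigp1, Isg15, Ifit3, Igtp and Ifi27l2a). None of the 41 passed the adjusted test. Over all tested genes, 1.62% were apart and higher in p65KO rTregs. Isg15, a ubiquitin-like modifier, had 48.0 and 56.6 RPKM in p65KO, 36.1 and 31.4 in c-RelKO and 36.3 and 23.9 in WT rTregs (0.62, SE 0.23). Ifit3, an antiviral RNA-binding protein, had 36.0 and 42.6 RPKM in p65KO, 27.7 and 25.0 in c-RelKO and 17.5 and 12.0 in WT rTregs (0.56, SE 0.33). For both genes the p65KO libraries were the highest, and for Ifit3 the c-RelKO libraries lay between p65KO and WT.

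Most of the lean came with c-RelKO replicate 2. Within the libraries numbered 1 the median of the 41 genes was 0.03 with 22 above 0, and within those numbered 2 it was 0.58 with 40 above 0. Without c-RelKO replicate 2 the median was 0.09. That library had the lowest of the 4 values for 35 of the 41 genes, against 2784 of all 10656. c-RelKO replicate 1 lay below both p65KO libraries in 21 of the 41 genes and above both in 9, against 3773 and 3720 of all 10656. Iigp1, an interferon-inducible GTPase, had 76.8 and 84.8 RPKM in p65KO, 75.0 and 23.7 in c-RelKO and 46.6 and 43.6 in WT rTregs, a difference of 0.93 that was 0.11 without c-RelKO replicate 2. The summed RPKM of the list was 3479 and 3644 in p65KO, 3257 and 2276 in c-RelKO and 2880 and 2344 in WT rTregs. Against WT the median was 0.51 in p65KO (38 of 41 above 0) and 0.19 in c-RelKO rTregs (29 of 41), comparisons that share the WT libraries. In aTregs the p65KO minus c-RelKO median was 0.00 with 22 of 41 above 0, against 46% of all tested genes.

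**Figure D4:**
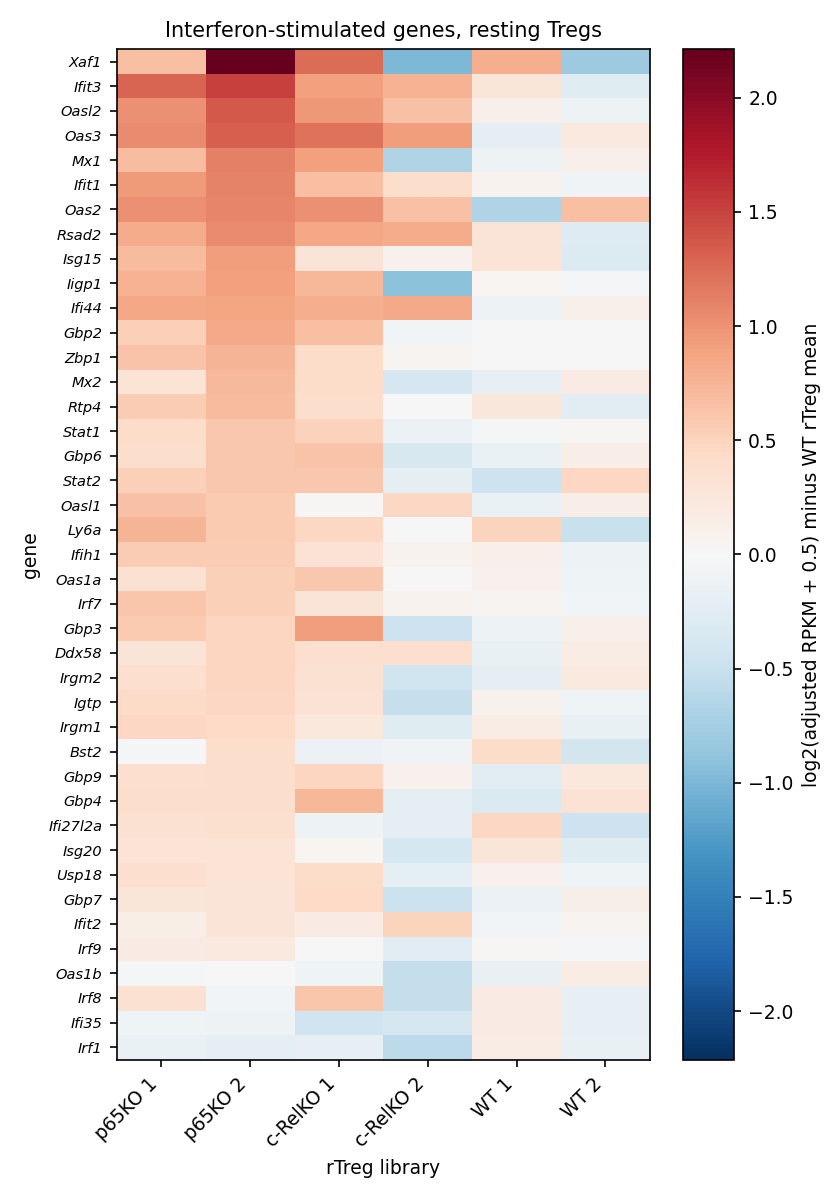
Level of 41 interferon-stimulated genes (rows) in each rTreg library (columns), as log2(adjusted RPKM + 0.5) minus the mean of the WT rTreg libraries; red is higher and blue lower than that mean. Both p65KO libraries and c-RelKO replicate 1 are mostly red, while c-RelKO replicate 2 is mostly near 0 or blue.

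Cell cycle genes also leaned towards p65KO, less so without c-RelKO replicate 2. Of 31 tested, 29 had a difference above 0, the median was 0.32, and 8 were apart, all higher in p65KO (Mki67, Ccnb2, Aurkb, Top2a, Birc5, Bub1, E2f1 and E2f2). Over all tested genes, 1.62% were apart and higher in p65KO. Values without c-RelKO replicate 2 are not given for Top2a, Birc5, Bub1, E2f1 and E2f2. Ccnb2, a mitotic cyclin, had 6.77 and 6.84 RPKM in p65KO, 5.43 and 1.90 in c-RelKO and 3.39 and 1.02 in WT rTregs (0.95, SE 0.48, and 0.30 without c-RelKO replicate 2). Aurkb, a mitotic kinase, had 3.36 and 3.80 RPKM in p65KO, 2.68 and 0.974 in c-RelKO and 1.53 and 0.383 in WT rTregs (0.91, SE 0.46, and 0.36 without c-RelKO replicate 2). In both genes the c-RelKO replicates differed more from each other than replicate 1 did from the p65KO libraries. The list's median was 0.09 within number 1 (22 of 31 above 0), 0.59 within number 2 and 0.15 without c-RelKO replicate 2. That library was the lowest of the 4 in 27 of the 31 genes, and c-RelKO replicate 1 lay below both p65KO libraries in 21, against 2784 and 3773 of all 10656. In aTregs it was 0.06.

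Treg identity genes had a median of 0.17, with 20 of 27 above 0. Of the 27, 2 were apart, both higher in p65KO (Gpr83 and Ecm1), against 1.62% of all tested genes. The sign of the median depended on 1 library, since it was -0.12 without c-RelKO replicate 2. Gpr83, an orphan receptor of Tregs, had 177 and 144 RPKM in p65KO, 130 and 77.0 in c-RelKO and 140 and 134 in WT rTregs (0.67, SE 0.82). Without c-RelKO replicate 2 Gpr83 was at 0.29, and Ecm1, at 0.52 with all libraries, was at 0.20. Foxp3 itself overlapped between the groups, with a difference of 0.49 (95% interval -0.33 to 1.31) that was -0.20 without c-RelKO replicate 2. Ctla4, an inhibitory receptor, had 144 and 133 RPKM in p65KO, 209 and 108 in c-RelKO and 156 and 177 in WT rTregs. Its c-RelKO replicates lay on either side of all other libraries.

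The other lists had medians between -0.08 and 0.15 and at most 1 gene apart each. Several of these medians changed sign without c-RelKO replicate 2. The interleukin 2 receptor, STAT5 and SOCS list was then at -0.01 and the TNF receptor superfamily at -0.03. Apoptosis regulators were at -0.12, chemokine receptors and adhesion at -0.21, and resting and lymphoid homing genes at 0.14. Of 30 effector Treg genes, 23 had a difference above 0 and the median was 0.08, but it ranged from -0.34 to 0.52 as each library was left out. Of 28 genes of the interleukin 2 receptor, STAT5 and SOCS list, 17 lay above 0 (median 0.07), and Il10ra was the gene apart. Socs1, a feedback inhibitor of cytokine receptors, had 86.3 and 95.2 RPKM in p65KO, 81.2 and 50.7 in c-RelKO and 101 and 96.0 in WT rTregs (0.50, SE 0.23, and 0.16 without c-RelKO replicate 2). Of 17 tested TNF receptor superfamily genes, 9 lay above 0 (median 0.05). Tnfrsf4 (0.15) and Tnfrsf18 (0.17), which encode the Treg costimulatory receptors OX40 and GITR, differed little.

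For class I antigen presentation, 14 of 18 genes lay above 0 (median 0.15), but the median was 0.02 without c-RelKO replicate 2. It was -0.006 within number 1 (9 of 18 above 0) and 0.24 within number 2 (18 of 18). Early genes induced by the T cell receptor were divided, with 15 of 26 above 0 (median 0.01). Nr4a1, a reporter of receptor signalling, had 47.1 and 43.9 RPKM in p65KO, 40.3 and 32.4 in c-RelKO and 37.7 and 39.4 in WT rTregs (0.33, SE 0.16, and 0.17 without c-RelKO replicate 2). Of 28 apoptosis regulators 15 lay above 0 (median 0.01), and Bcl2l11, the pro-apoptotic BIM, was apart. It had 20.5 and 20.5 RPKM in p65KO, 13.2 and 14.9 in c-RelKO and 15.3 and 20.5 in WT rTregs (0.53, SE 0.27). Of 24 resting and lymphoid homing genes, 10 lay above 0 (median -0.03), and Igfbp4, an insulin-like growth factor binding protein, was apart at 0.51.

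The metabolic lists had medians near 0, but the sign of the cholesterol one depended on the library. Of 21 glycolysis genes 16 lay above 0 (median 0.08), and of 22 cholesterol biosynthesis genes 7 did (median -0.08). The cholesterol median was 0.06 within number 1 (17 of 22 above 0) and -0.25 within number 2 (2 of 22). It was -0.23 without c-RelKO replicate 1 and 0.035 without c-RelKO replicate 2. Sc5d, a sterol desaturase, had 26.6 and 26.7 RPKM in p65KO, 40.0 and 31.0 in c-RelKO and 36.9 and 33.7 in WT rTregs (-0.39, SE 0.16, and -0.21 without c-RelKO replicate 1). Its p65KO libraries were the lowest. Of 28 chemokine receptor and adhesion genes 17 lay above 0 (median 0.03), of 21 cytokines and lineage factors 9 did (median -0.03), and of 8 Gimap genes, GTPases of lymphocyte survival, 1 did (median -0.08).

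**Figure D5:**
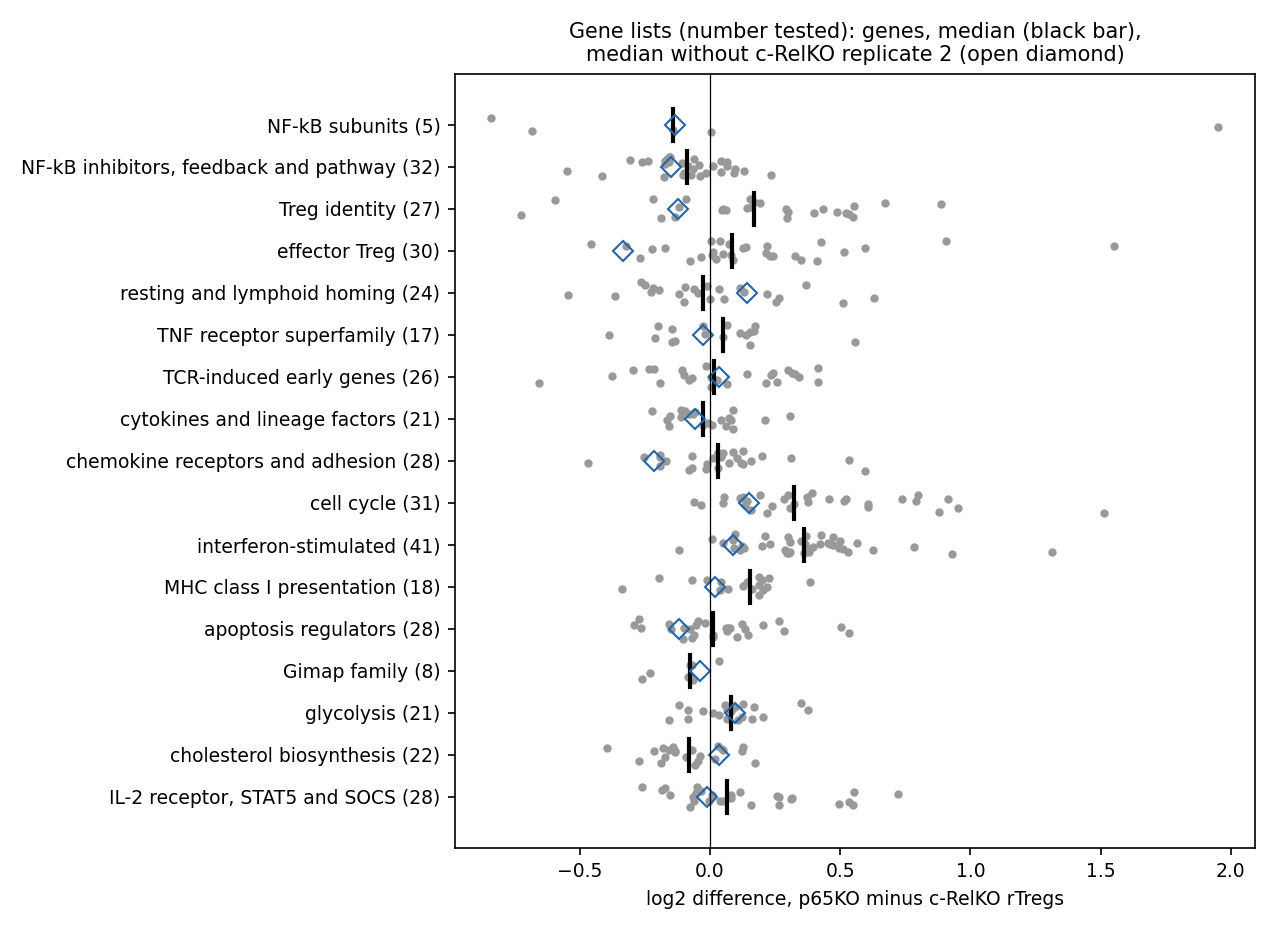
Log2 difference, p65KO minus c-RelKO rTregs (horizontal axis), of the tested members of each gene list (grey points, number in brackets). Black bars are list medians and open diamonds the medians without c-RelKO replicate 2; the interferon-stimulated and cell cycle medians of 0.36 and 0.32 move to 0.09 and 0.15.

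By position, chromosome 12 held the highest share of genes apart among the autosomes. Of its 365 tested genes 23 were apart (6.30%), 10 higher and 13 lower in p65KO rTregs, against 2.24% of genes on all other chromosomes. The next highest was chromosome 9 (3.91%) and the lowest chromosome 3 (0.792%). The chromosome 12 genes lay from Lpin1 (start 16535669, GRCm38) to Ncapg2 (start 116405402), and included Rnf144a, Kcnf1, Id2, Klhdc2, Dhrs7, Snapc1, Churc1, Fntb and Serpina3g among the genes above. Of the 23, 19 had the same sign in aTregs, as did 79.8% of all genes apart and 56.8% of all tested genes. Near the targeted genes the shares were close to the 2.37% of all tested genes, with 2 of 61 genes within 10 Mb of Rel apart (3.28%, Rel itself and Lgalsl) and 4 of 190 within 10 Mb of Rela (2.11%).

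The Y-linked genes Eif2s3y, Ddx3y and Uty were apart and higher in p65KO. Eif2s3y had 48.2 and 39.0 RPKM in p65KO, 18.0 and 30.5 in c-RelKO and 66.0 and 64.7 in WT rTregs. Xist, expressed from the inactive X of females, had 3.08 and 5.88 RPKM in p65KO, 6.51 and 4.41 in c-RelKO and 3.08 and 0 in WT rTregs. Both kinds of transcript were thus present in every rTreg library except that Xist was at 0 in WT replicate 2. Without genes on X and Y, 166 genes were apart and higher and 76 apart and lower. Globin RNA (Hbb-bs) was 11.5 and 8.33 RPKM in p65KO, 6.89 and 22.8 in c-RelKO and 5.95 and 0 in WT rTregs; its part in the results was not tested.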

How the data were processed

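Only the sorted set, 13 libraries of rTregs and aTregs, was used. STAR, mm10 and DESeq2 1.10.1 are named in the submitters' processing notes. The authors deposited 1 table of RPKM per library, with log2 fold changes and p-values against WT per the file headers. These deposited values are treated as a score, since 2.53% lie below 0 (lowest -30.7), and the adjustment is not described; a plain RPKM had been assumed when the tests were chosen, and the test stayed the same. Between p65KO and c-RelKO rTregs, 37 genes were tied in number 1, 33 in number 2 and 0 across numbers, and no gene called apart was tied. Of 14839 rows, 21 without library values were left out.

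Values below 0 were set to 0. Group means of 6 groups were compared in limma 3.58.1 (R 4.3.3; lmFit, eBayes with trend) on log2(RPKM + 0.5), two-sided, Benjamini-Hochberg adjusted over 10656 genes; the procedure was tested on simulated data. Deposited p-values were adjusted here over 14818 genes. Named genes were 6 fixed genes, the 12 largest non-overlapping differences in each direction with a mean of 5 RPKM or more in the group with more RNA, and up to 3 non-overlapping genes per list with 2 RPKM or more. Members and the 17 lists, written from general knowledge, were chosen with earlier results of these data known. Positions are from GENCODE vM21 (GRCm38), and 10623 tested genes matched. Promoters were read 250 bases before the start site, not 300, to leave out transcribed bases. Alternatives were pseudocounts, filters, scaling, robust variance, fewer libraries, negative values kept, a term for replicate number and omitting each library; 3 were added after seeing the data, namely leaving out libraries numbered 3, leaving out genes on X and Y, and the aTreg comparison without c-RelKO replicate 2.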

Additional observations from a re-analysis of the deposited data

Results flagged for a closer look

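For 6 named genes the p65KO and c-RelKO libraries did not overlap in rTregs or in aTregs, but in opposite directions. Most named genes were chosen for non-overlap in rTregs. Of all tested genes 30.7% did not overlap in rTregs and 36.6% in aTregs, and the share that crossed is not given. Of the genes apart in rTregs, 6 of the 173 higher and 5 of the 80 lower ones crossed in this way. Each value is the rTreg difference minus the aTreg difference on the log2 scale. No gene passed the limma test of that difference without a replicate block and with the filter on low values (lowest Benjamini-Hochberg adjusted p 1), while 8 did with the block and 2 with no filter. The counts do not say whether the 6 genes are among those, and with 2 libraries a group such crossings are given as values only. The small nucleolar RNA Snord55 differed by 1.65, with 9.50 and 8.01 RPKM in p65KO and 3.84 and 4.24 in c-RelKO rTregs, against 5.42 and 6.62 in p65KO and 8.83 and 10.3 in c-RelKO aTregs. Ccr9, a gut-homing chemokine receptor, differed by 1.84, and its aTreg values were 1.14 and 0.724 RPKM in p65KO and 5.74 and 1.46 in c-RelKO. Cd3e, a T cell receptor subunit, differed by -0.80, with 264 and 354 RPKM in p65KO and 519 and 381 in c-RelKO rTregs. Cd79b, a B cell receptor subunit, differed by -0.59, Stat5b, a transducer of interleukin 2 signals, by -0.23, and Gimap3 by -0.22.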

How the results depend on the processing

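The direct contrast called 0 genes in limma in all 15 alternatives, with 119 to 452 genes at an unadjusted p under 0.05 and 200 in the fit with a replicate block. Deviations from group means correlated by 0.44 between same-numbered p65KO and c-RelKO libraries, 0.08 between p65KO and WT and 0.04 between c-RelKO and WT. The main test had no term for replicate number. Since the 0.44 belongs to the groups compared, structure shared within a number may have been left in that test. The fit with a replicate block also called 0 genes in the direct contrast. The adjustment of the table alters these deviations itself. With the replicate block, 46 genes were called in the aTreg contrast and 8 in its difference from rTregs, and with no filter on low values 5 and 2; the cause was not tested. The count of genes apart and lower in p65KO was 51 with a filter of 3 RPKM, which tests fewer genes. With each library left out in turn, which leaves 1 library on a side, between 222 and 628 genes were apart and higher and between 147 and 335 apart and lower; the highest count of higher genes came without c-RelKO replicate 1. Since no gene was called in any alternative, no difference could change its side of the threshold. Named genes outside the fixed set were chosen for non-overlap, so leaving out a library could not reverse their sign. The next count was therefore largely set by the choice of genes and does not measure stability. Of 1214 differences of 81 named genes, 1211 kept their sign and side of the threshold. The exceptions were Nfkb1, at -0.077 without p65KO replicate 1 and -0.054 without c-RelKO replicate 2, and Foxp3, at -0.20 without c-RelKO replicate 2. With each library left out, Nfkb1 ranged from -0.077 to 0.082 and Foxp3 from -0.20 to 1.17. Of 255 list medians 23 moved, all with a library left out. Another scaling moved the median of all genes by 0.0157. Low values are of unknown precision, since the depth is unknown.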
